A study of Mus musculus with 5 samples.

Results

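The genes described here encode the subunits of the receptors for glutamate and the GABA-A receptors for GABA. They were taken as a list of 35 genes by family membership, out of the 21883 protein-coding genes in the RefSeq table. By family, 17 encode ionotropic glutamate receptors (4 AMPA, 7 NMDA, 5 kainate and 1 delta subunit), 7 encode metabotropic glutamate receptors and 11 encode GABA-A subunits (5 alpha, 2 beta, 2 gamma, and the delta and epsilon subunits). Other genes of these families were not analysed here. A peak, that is a stretch of open chromatin called by the authors, was given to the gene nearest its summit, inside the gene or within 50 kb of it. All 35 genes had at least 1 peak in some library.

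Glutamate is the main excitatory and GABA the main inhibitory transmitter of the brain. Ionotropic glutamate receptors and GABA-A receptors are ion channels that open on binding the transmitter and are built from several subunits, each from its own gene. Metabotropic glutamate receptors signal through G proteins instead. Which subunit genes a neuron uses sets how fast its channels open, which ions pass and which drugs bind, and many of these genes are long, with large introns.

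Open chromatin was profiled by ATAC-seq, in which a transposase cuts and tags accessible DNA, in CD1 mouse embryos. The groups were distal forelimb ectoderm and distal hindlimb ectoderm at embryonic stage E14.5, with 2 libraries each, and forebrain at stage E13.5, with 1 library; the labels name no genetic change and no treatment in any group. Trypsin freed the ectoderm and collagenase dissociated the forebrain, so effects of tissue, stage and dissociation cannot be told apart. Whether the replicates are separate embryos or litters is not stated, and the spread between libraries may be technical. Values given in a row of 4 or 5 follow the order forelimb replicates 1 and 2, hindlimb replicates 1 and 2, forebrain.

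The lists held 55391 to 86219 peaks in ectoderm and 151077 in forebrain, and hindlimb replicate 1 had the shortest list. In place of read totals, which were not used, a background rate solved from fold and p gave a guide to depth: 3.1 to 4.36 reads per position in ectoderm and 4.62 in forebrain. Hindlimb replicate 1, with the shortest list, had the highest ectoderm rate (4.36) and the lowest median fold of the lists (3.24). Since the forebrain list was the longest, the main counts below stand beside the same count over all protein-coding genes and, in most cases, over the 2428 protein-coding genes of 100 kb or more (long genes). The tissue labels matched part of their markers: the basal keratin genes Krt5 and Krt14 had 0 forebrain peaks, and the neuronal factor gene Neurod2 had 8 forebrain peaks and 0 in every ectoderm library. Krt14 had no promoter peak in any library, and a Krt5 promoter peak was called in 3 of the 4 ectoderm libraries.

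At the promoters, most receptor genes were open in forebrain and many were also open in limb ectoderm. A promoter peak is one with its summit within 1 kb of a start site listed by RefSeq. For the 10 genes without a listed start (Gria1, Gria3, Grin2a, Grin2b, Grin3a, Grik1, Grid1, Grm4, Grm5 and Gabrd) it is one within 1 kb of either annotated gene end, so some of these may lie at the end of the transcript. In forebrain, 31 of the 35 genes had such a peak (88.6%), against 63.3% of all protein-coding genes; of the 22 receptor genes of 100 kb or more all 22 had one, against 87.0% of genes of that length. The number of receptor genes with a promoter peak was 26 and 25 in forelimb replicates 1 and 2 and 17 and 26 in hindlimb replicates 1 and 2. As shares these were 74.3%, 71.4%, 48.6% and 74.3%, beside 58.4%, 55.6%, 49.5% and 57.7% of all genes and 80.7%, 77.9%, 69.8% and 80.0% of long genes. Promoters open in all 5 libraries numbered 15 of 35, beside 43.7% of all protein-coding genes, and 11 of the 22 long ones, beside 64.4%. Without hindlimb replicate 1 this number was 21, beside 49.3% of all genes. Grik1 alone had its promoter peak in forebrain but not in ectoderm, 1 of 35 beside 4.26% of all genes (and 3.34% of long genes), and this count moved with the settings: it was 5 beside 6.63% at a −log10 q of 5 or more, 2 beside 2.69% with lists of equal length and 3 beside 4.98% without forelimb replicate 2 or beside 5.31% without hindlimb replicate 2. In Grin2c, Grik5 and Gabra6 none was called in any library, 3 of 35 beside 29.8%.

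The sequences of 5 promoters are given to set letters beside these states, each from 250 bases before to 50 after the start, from RefSeq (GRCm38.p6, the mm10 assembly). Gria4 and Grm8 had the highest-ranked forebrain peaks by p among promoters with a listed start that were open in all 5 libraries, Grik5 and Grin2c are the longest genes with no promoter peak and a listed start, and Gabra4, chosen after its values were seen, shares its promoter peak with Gabrb1. A summit lay inside the window in 5 of 5 libraries for Gria4 and Gabra4 and in 1 for Grm8. In Gabra4 those summits lay beyond the annotated gene end at 71658308 and were given to Gabrb1. The promoter summits given to Gabra4 itself, at chr5:71658004 to 71658077, lay outside its window in every library. Capitals mark the GC box GGGCGG, also where it reads on the other strand. No capitals stand in Gria4.
Gria4, chr9:4796185-4796484, minus strand: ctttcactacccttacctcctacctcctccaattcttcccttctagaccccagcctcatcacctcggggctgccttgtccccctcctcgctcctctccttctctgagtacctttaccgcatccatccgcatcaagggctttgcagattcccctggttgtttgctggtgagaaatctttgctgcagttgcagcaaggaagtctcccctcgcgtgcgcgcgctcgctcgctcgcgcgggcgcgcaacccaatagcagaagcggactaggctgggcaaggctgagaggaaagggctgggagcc
Grm8, chr6:28135097-28135396, minus strand: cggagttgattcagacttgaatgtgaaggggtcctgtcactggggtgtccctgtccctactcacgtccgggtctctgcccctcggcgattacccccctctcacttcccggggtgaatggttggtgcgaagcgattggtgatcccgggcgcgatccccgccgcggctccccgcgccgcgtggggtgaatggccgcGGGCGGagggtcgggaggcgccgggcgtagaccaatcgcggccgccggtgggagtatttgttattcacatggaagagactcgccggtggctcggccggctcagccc
Grik5, chr7:25072320-25072619, minus strand: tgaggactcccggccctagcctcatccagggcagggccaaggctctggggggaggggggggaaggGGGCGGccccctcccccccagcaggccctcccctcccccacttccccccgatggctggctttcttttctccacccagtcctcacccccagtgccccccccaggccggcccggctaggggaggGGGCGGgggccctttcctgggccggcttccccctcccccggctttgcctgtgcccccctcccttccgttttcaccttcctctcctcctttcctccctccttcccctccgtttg
Grin2c, chr11:115267194-115267493, minus strand: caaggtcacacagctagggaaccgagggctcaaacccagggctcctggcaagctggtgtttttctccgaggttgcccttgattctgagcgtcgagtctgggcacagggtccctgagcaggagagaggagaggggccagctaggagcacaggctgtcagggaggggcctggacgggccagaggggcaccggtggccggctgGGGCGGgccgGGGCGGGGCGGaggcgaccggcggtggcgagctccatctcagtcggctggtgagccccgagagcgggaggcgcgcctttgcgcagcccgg
Gabra4, chr5:71658259-71658558, minus strand: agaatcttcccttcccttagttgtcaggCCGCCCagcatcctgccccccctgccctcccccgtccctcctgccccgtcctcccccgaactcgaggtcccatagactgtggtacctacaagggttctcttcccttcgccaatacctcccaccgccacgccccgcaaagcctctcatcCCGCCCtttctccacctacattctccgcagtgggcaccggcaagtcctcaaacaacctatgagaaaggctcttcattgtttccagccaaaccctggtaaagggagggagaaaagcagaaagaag

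The GC content of these windows was 59.7% in Gria4, 67% in Grm8, 72% in Grik5, 70% in Grin2c and 58.7% in Gabra4. The ratio of observed to expected CpG dinucleotides, which is low where methylated CpG has been lost, was 0.66 in Gria4 with 17 CpG, 0.99 in Grm8 with 33, 0.28 in Grik5 with 10, 0.63 in Grin2c with 22 and 0.54 in Gabra4 with 12. GC boxes numbered 3 in Grin2c, 2 each in Grik5 and Gabra4, 1 in Grm8 and 0 in Gria4. So the windows without a peak were not poor in GC or GC boxes in these cases, but they are no sample of the rest: Gabra6, also without a promoter peak, had 42% GC and 0 GC boxes, and Grik3, with peaks, had 82% and 7.

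**Figure D1:**
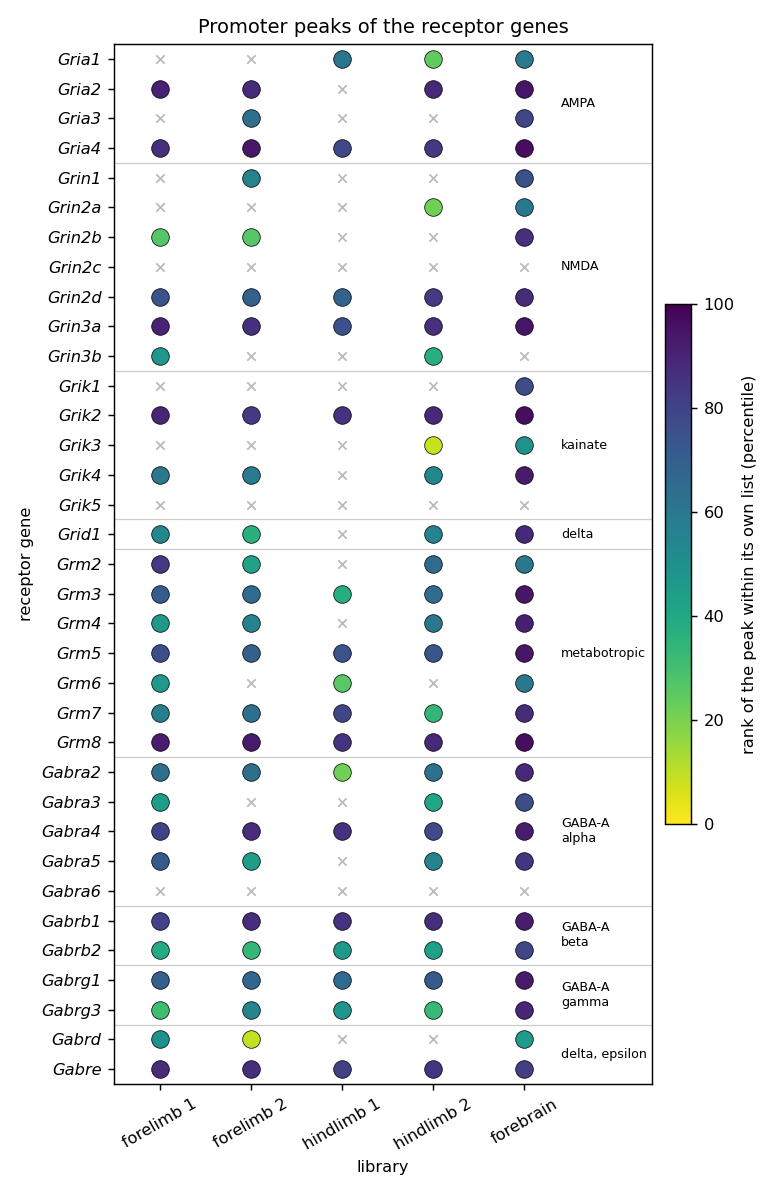
Promoter peaks of the 35 receptor genes (rows, grouped by receptor class) in the 5 libraries (columns). A circle is a called peak, coloured by the rank of the strongest promoter peak within that library's own list, in percent, so colours are to be read within a column, and a cross means no called peak. Grin2c, Grik5 and Gabra6 have crosses throughout, and Grik1 has a circle in forebrain alone.

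The AMPA subunit genes, whose products carry most fast excitatory transmission, all had a forebrain promoter peak, beside 63.3% of all genes and 87.0% of long genes. At Gria4 (chr9:4417893-4796234) the authors' fold enrichment at the summit was 6.99, 9.23, 4.69 and 8.02 in the ectoderm libraries and 14.3 in forebrain, and each summit lay within 31 bp of the listed start. Fold values are the authors' own for each list and describe a peak only within it. Gria2 (chr3:80681450-80804227), the subunit that makes AMPA channels impermeable to calcium, had a promoter peak with a fold of 9.96 and 7.96 in forelimb, 9.53 in hindlimb replicate 2 and 8.61 in forebrain, and none in hindlimb replicate 1. Both genes were therefore open at the start in ectoderm as well as in forebrain. Gria1 and Gria3 have no listed start. Gria1 (chr11:57011571-57330244) had peaks at its lower end in hindlimb replicate 2 (1) and forebrain (2) and at its upper end in hindlimb replicate 1 (1). Gria3 (chrX:41400819-41678601) had them at its lower end in forelimb replicate 2 (3) and forebrain (4) and at its upper end in forebrain (1).

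Among the NMDA subunit genes the states were spread over most of the possible patterns. Grin1 (chr2:25291177-25319187), the subunit that every NMDA receptor needs, had a promoter peak in forebrain with a fold of 6.72 and in forelimb replicate 2 with 3.91, and in no other library. Of the glutamate-binding subunits, Grin2d was open in all 5 libraries, Grin2b had forebrain and both forelimb libraries, Grin2a had forebrain and hindlimb replicate 2, and Grin2c had none. The Grin2b peaks did not mark 1 end: forelimb replicate 1 had its peak at the lower end, and forelimb replicate 2 and forebrain at the upper end. Grin3a, a glycine-binding subunit, had a peak at its upper end in all 5 libraries, with folds of 7.11, 5.81, 3.85, 6.63 and, in forebrain, 11.7. Its relative Grin3b (chr10:79970397-79977190) was the only receptor gene with promoter peaks in ectoderm and not in forebrain, in forelimb replicate 1 (fold 2.95) and hindlimb replicate 2 (fold 2.7).

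Kainate receptor subunits form channels on both sides of the synapse, and their genes included the one forebrain-only promoter. At Grik1 (chr16:87895901-88290863) a peak with a fold of 5.13 and a rank at percentile 77.0 of the forebrain list lay 579 bp from the upper gene end, with no ectoderm peak within 1 kb. Grik2 (chr10:49093680-49790161) was open in all 5 libraries, with folds of 7.7, 5.58, 5.89, 9.39 and 14.7 in forebrain. Grik4, which needs a partner subunit to form a channel, had forebrain (fold 10.0) and all ectoderm libraries but hindlimb replicate 1. Grik3 had forebrain (fold 2.71) and hindlimb replicate 2 (2.44), both weak, and Grik5 had none. Grid1 (chr14:34820003-35583387), a delta receptor that links presynaptic and postsynaptic membranes, had peaks at its lower end in forebrain, both forelimb libraries and hindlimb replicate 2.

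Every metabotropic glutamate receptor gene had a forebrain promoter peak, and 4 of the 7 (Grm3, Grm5, Grm7 and Grm8) had one in all 5 libraries. Over all genes these shares were 63.3% and 43.7%, and over long genes 87.0% and 64.4%. Grm8 (chr6:27275121-28135146), a presynaptic receptor that lowers cyclic AMP, had folds of 7.82, 7.48, 4.99, 7.4 and 11.9, with the summit 913 to 943 bp from the nearest listed start. These strongest Grm8 summits lay outside the 300 bases printed above. Grm5 (chr7:87583981-88135063), which couples to calcium release, had folds of 6.0, 5.11, 4.12, 6.53 and 15.5 at its lower end. Grm2 and Grm4 were open in 4 of 5 libraries, all but hindlimb replicate 1. Grm6, the receptor of retinal ON bipolar cells, had forelimb replicate 1, hindlimb replicate 1 and forebrain.

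Of the 11 GABA-A genes, 10 had a forebrain promoter peak, beside 63.3% of all genes and 87.0% of long genes. In all 5 libraries 7 had one, beside 43.7% and 64.4%. These 7 were the alpha subunit genes Gabra2 and Gabra4, both beta subunit genes (Gabrb1 and Gabrb2), both gamma subunit genes (Gabrg1 and Gabrg3) and the epsilon subunit gene Gabre. Alpha and beta subunits form the GABA binding site together, and gamma subunits are needed for the benzodiazepine site. Gabre (chrX:72256926-72274828) had folds of 8.62, 8.76, 5.41, 8.95 and 7.47, and its rank within the list was at percentile 80.7 to 87.9 in every library. Gabrg1 (chr5:70751047-70842617) had folds of 5.05, 4.66, 3.97, 5.94 and, in forebrain, 10.7, with summits 232 to 656 bp from its start. Gabra6, the alpha subunit of cerebellar granule cells, had no promoter peak.

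Several GABA-A genes lie side by side, and 1 pair shares its promoter peak. Gabra4 (chr5:71569734-71658308) and Gabrb1 (chr5:71657921-72149572) overlap by 388 bp and have listed starts 387 bp apart, and the same summit served both in 5 of 5 libraries. That region is given to both genes here, and their promoter states are not independent of each other. Further along chromosome 5, Gabrg1 and Gabra2 are 116 kb apart; on chromosome 7 Gabrg3 and Gabra5 are 20.5 kb apart, and on chromosome 11 Gabra6 and Gabrb2 are 98.4 kb apart.

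Within each list, receptor promoter peaks were weaker than promoter peaks in general. The median rank of the strongest promoter peak per gene, as a percentile of its own list, was 70.7, 63.9, 74.3 and 64.0 in forelimb replicates 1 and 2 and hindlimb replicates 1 and 2, where that of all genes with a promoter peak was 87.6, 86.4, 85.1 and 87.5. In forebrain it was 87.9 for receptor genes (31 genes) and 93.7 for all genes. Among genes of 100 kb or more it was 82.2 to 85.7 over the ectoderm libraries and 92.9 in forebrain. The forebrain promoter peaks ran from percentile 45.6 (Gabrd, the subunit of receptors outside synapses) to 96.9 (Gria4), and those of forelimb replicate 2 from 8.74 (Gabrd) to 93.8 (Gria4).

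Most receptor peaks lay away from promoters, and there the forebrain excess was larger. In total the receptor genes had 269 and 258 peaks in the forelimb libraries, 139 and 226 in the hindlimb libraries and 619 in forebrain. The forebrain number was 2.78 times the ectoderm mean of 223 ± 58.9 (SD, n = 4 libraries), and 2.3 to 4.45 times the number in the single ectoderm libraries. Over all protein-coding genes this ratio was 1.90, and over genes of 100 kb or more it was 2.36. At promoters the receptor genes had 45, 41, 20 and 42 ectoderm peaks and 70 in forebrain (ratio 1.89, beside 1.43 for all genes and 1.53 for long genes). Elsewhere they had 224, 217, 119 and 184 ectoderm peaks and 549 in forebrain (ratio 2.95, beside 2.12 and 2.51). When each list was cut to its 55391 strongest peaks, the overall ratio was 1.24, beside 1.03 for all genes, and without hindlimb replicate 1 it was 2.47, beside 1.74.

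Peak counts of marker genes for other cell types also differed between the tissues. The ratio was 4.51 for 6 forebrain progenitor and neuron genes and 0.84 for 5 epidermis genes. It was 3.16 for 3 mesenchyme genes, 2.91 for 4 genes of nerve glia and melanocytes, 2.62 for 3 endothelium genes and 1.35 for 3 Merkel cell genes, so the receptor ratio of 2.78 lay within the range of these groups. Summed over the list, the nerve glia and melanocyte genes had 7 to 18 peaks in ectoderm libraries and 40 in forebrain, with 0 to 2 ectoderm peaks at Sox10. The mesenchyme genes had 7 to 13 and 30, the endothelium genes 9 to 16 and 34, and the Merkel cell genes 17 to 32 and 35. The part of such cells in the receptor counts was not tested. In bulk tissue, a peak in fewer cells and a weaker peak in all cells cannot be told apart.

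Receptor genes were long and sparsely covered with peaks. Their median length was 213 kb, beside 17.2 kb for all protein-coding genes. Per 100 kb of gene and flank they had 5.27 forebrain peaks and 1.90 ectoderm peaks (mean of 4 libraries), while all protein-coding genes had 6.87 and 3.61 and genes of 100 kb or more 6.97 and 2.95. So the density was below that of long genes in general in both tissues. The median per gene was 4.88 in forebrain and 2.1 in ectoderm, beside 6.96 and 3.04 for long genes. Long and short receptor genes had like ratios of forebrain to ectoderm peaks, 2.78 for the 22 of 100 kb or more and 2.77 for the 13 shorter ones, where shorter genes at large had 1.65. The 13 shorter ones had 63 forebrain peaks, of which 19 were at Grm4 and 10 at Gabra4. Their ratio was 2.33 to 4.5 by library, and 7 of the 13 had more forebrain peaks than each ectoderm library. In forebrain 78.4% of receptor peaks lay inside a gene and away from its promoter, beside 52.3% over all genes. Of the forebrain peaks of the 25 genes with a listed start, 48 lay within 1 kb of it, 92 lay 200 to 500 kb away and 52 lay 500 to 1000 kb away.

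More forebrain peaks than in each of the 4 ectoderm libraries were found at 26 of the 35 receptor genes, beside 39.0% of all protein-coding genes, and at 19 of the 22 long ones, beside 80.8% of long genes. The 9 genes whose ranges met or crossed were Grin2d, Grin3b, Grm2, Grm6, Gabra2, Gabra3, Gabrg3, Gabrd and Gabre. The median difference between forebrain and the ectoderm mean was 7.25 peaks per receptor gene, beside 0.75 for all genes and 9 for long genes.

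**Figure D2:**
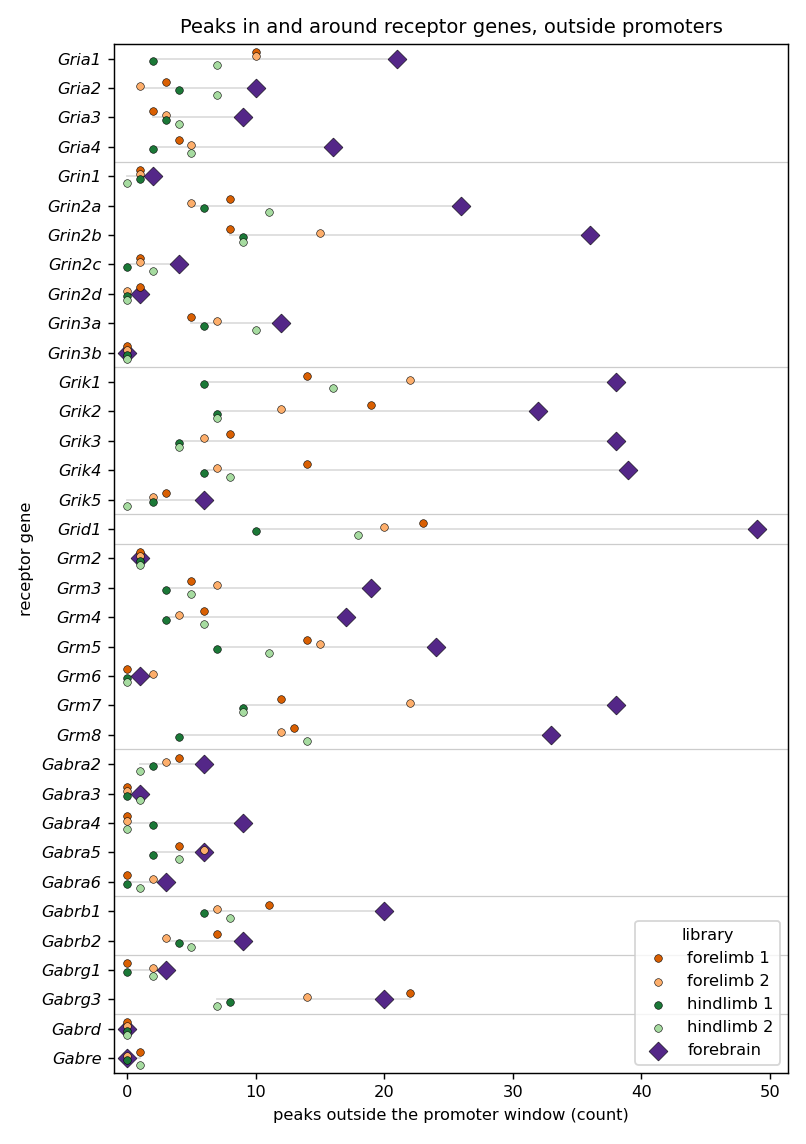
Number of peaks outside promoters (horizontal axis, count) given to each receptor gene (rows) in the 5 libraries; circles are ectoderm libraries and the diamond is forebrain. The diamond lies to the right of all 4 circles for 26 genes, with 49 forebrain peaks at Grid1 and 39 at Grik4.

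Kainate receptor genes had the highest ratio to the ectoderm mean of the classes, though not against forelimb replicate 1 alone, where NMDA genes (3.14) and AMPA genes (2.87) exceeded them. Their peaks numbered 62, 52, 26 and 39 in the ectoderm libraries and 161 in forebrain, a ratio of 3.6 to the ectoderm mean (2.6 to 6.19 by library), and it was 1.71 with lists of equal length and 6.31 with the stricter −log10 q limit of 5. Grik3 (chr4:125490259-125714173) had 8, 6, 4 and 5 ectoderm peaks and 40 in forebrain, and Grik4 (chr9:42518182-42945000) had 16, 8, 6 and 9 and 42 in forebrain. At both, forebrain lay far above every ectoderm library, although the Grik3 promoter peak was among the weakest. Grik1 had 14, 22, 6 and 16 in ectoderm and 39 in forebrain, and Grik2 had 21, 14, 8 and 9 and 34. Grik5 had 3, 2, 2 and 0 and 6 in forebrain, none of them at its promoter.

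The other ionotropic glutamate classes had like ratios in the full lists, from 2.83 to 2.93. At a −log10 q of 5 or more they were apart, at 2.90 for AMPA, 4.24 for NMDA and 4.67 for delta, and with lists of equal length they were 1.14, 0.97 and 1.54. AMPA genes had 23, 26, 13 and 28 ectoderm peaks and 66 in forebrain (ratio 2.93, 2.36 to 5.08 by library). All 4 genes had more forebrain peaks than any ectoderm library, beside 39.0% of all genes and 80.8% of long genes. Gria1 led the AMPA genes with 10, 10, 3 and 8 in ectoderm and 23 in forebrain. Grid1 had 24, 21, 10 and 20 and, in forebrain, 53, the largest number of any receptor gene. NMDA genes had 29, 34, 25 and 37 ectoderm peaks and 91 in forebrain (ratio 2.91, 2.46 to 3.64 by library). Most of the NMDA peaks lay at Grin2b (chr6:135713221-136173615), with 9, 16, 9 and 9 in ectoderm and 39 in forebrain, and at Grin2a (chr16:9567901-9996083), with 8, 5, 6 and 12 and 27. Grin2c, without a promoter peak, had 1, 1, 0 and 2 in ectoderm and 4 in forebrain.

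Metabotropic receptor genes had 61, 72, 32 and 55 ectoderm peaks and 148 in forebrain (ratio 2.69, 2.06 to 4.63 by library). Grm7 (chr6:110645349-111567230), a presynaptic receptor of low glutamate affinity, had 14, 24, 10 and 10 and, in forebrain, 40. Grm3 had 7, 8, 4 and 8 and 22, and Grm4 had 7, 5, 3 and 8 and 19. These genes had forebrain counts above each ectoderm library. The short genes Grm2 and Grm6 did not, with 2, 3, 1 and 2 against 3 and with 2, 2, 1 and 0 against 2.

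GABA-A genes had the lowest ratio of the families. Their peaks numbered 70, 53, 33 and 47 in the ectoderm libraries and 100 in forebrain, a ratio of 1.97 (1.43 to 3.03 by library), near the 1.90 of all genes and below the 2.36 of long genes. The ionotropic glutamate genes had 138, 133, 74 and 124 and 371, a ratio of 3.16 (2.69 to 5.01). Both ranges overlap, but against each single ectoderm library the ionotropic ratio was the higher one. It was also higher in 13 of 13 settings of the analysis; these comparisons all share the 1 forebrain library, so they are not independent. With lists of equal length it was 1.37 for ionotropic, 1.18 for metabotropic and 1.01 for GABA-A genes.

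Within the GABA-A family, alpha subunit genes had a ratio of 2.44, beta 2.18, gamma 1.54 and the delta and epsilon genes together 1.09, and with lists of equal length the ratio was 0.53 for gamma and 0.5 for delta and epsilon. Gabra4 had 1, 1, 3 and 1 ectoderm peaks and 10 in forebrain, and Gabrb1 had 15, 11, 8 and 11 and 24; the genes shared their promoter region and not their peaks elsewhere. Gabrg3 (chr7:56716463-57387215) had more peaks in 1 ectoderm library than in forebrain, with 24 in forelimb replicate 1, 15 in forelimb replicate 2, 10 and 9 in hindlimb and 21 in forebrain. Gabra3 (chrX:72432676-72656919) was nearly free of peaks over its 224 kb, with 1, 0, 0 and 2 in ectoderm and 2 in forebrain. Neighbouring classes in the order from kainate to delta and epsilon all had overlapping ranges over the ectoderm libraries.

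**Figure D3:**
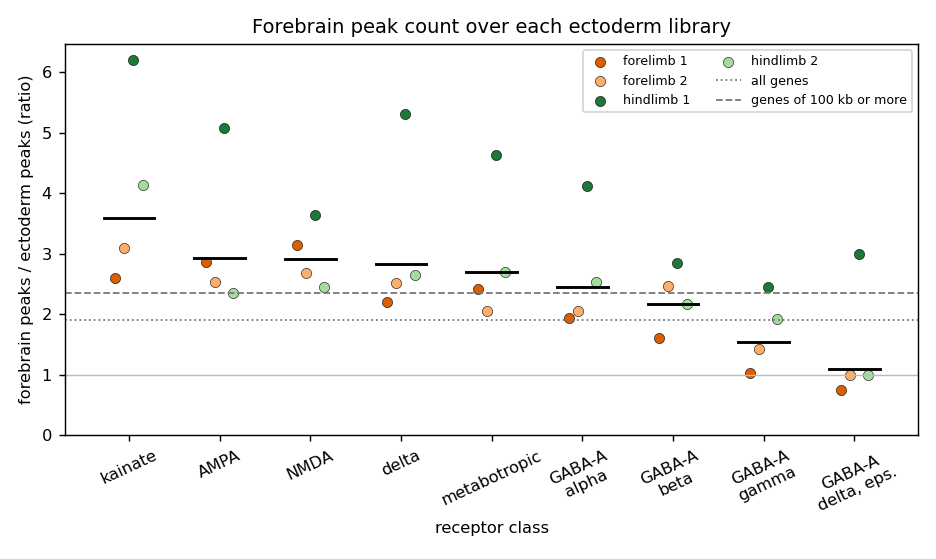
Forebrain peak number divided by that of each ectoderm library (circles) and by the mean of the 4 (bars), as a ratio, for each receptor class. Dotted and dashed lines give the ratio to the mean for all protein-coding genes (1.90) and for genes of 100 kb or more (2.36); kainate genes lie highest at 3.6 and the GABA-A delta and epsilon genes lowest at 1.09.

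Peaks were then merged across libraries into regions, joined by 1 bp of overlap, to ask which sites the tissues shared. The receptor genes had 916 regions, 41 at promoters and 875 elsewhere. Forebrain-only regions, with a forebrain peak and no ectoderm peak, made up 41.8% (383 regions; 95% Clopper-Pearson interval 38.6 to 45.1, counting error only), beside 31.7% for all protein-coding genes and 38.3% for long genes. Elsewhere the share was 43.4% (40.1 to 46.8), beside 34.3% and 39.4%, and at promoters it was 7.32% (3 of 41 regions, of which a gene may hold several; 1.54 to 19.9), beside 11.0%. By gene, 30 of 35 had at least 1 forebrain-only region, beside 52.3% of all genes, and 21 of the 22 long ones, beside 96.1%. With lists of equal length the share was 21.2%, beside 14.4% for all genes.

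By family, the forebrain-only share was 44.4% in ionotropic genes, 44.2% in metabotropic genes and 30.1% in GABA-A genes (23.1 to 37.7). In the forebrain list these sites were weak: forebrain-only receptor regions elsewhere had a median rank at percentile 33.3, and receptor regions shared with ectoderm had 56.1. For all genes the same medians were 37.6 and 65.5.

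**Figure D4:**
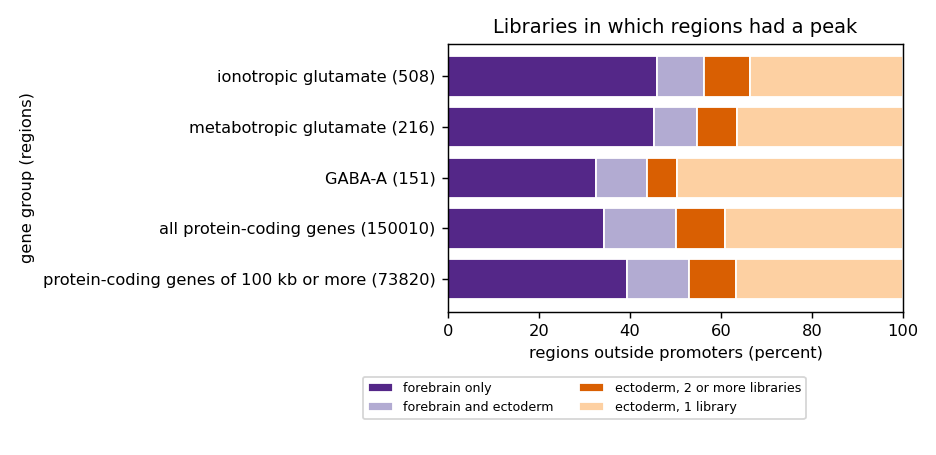
Share of regions outside promoters (percent, horizontal axis) by the libraries that had a peak there, for the receptor families and for both backgrounds, with the number of regions in brackets. The forebrain-only part is narrower in GABA-A genes (32.5%) than in ionotropic (45.9%) or metabotropic genes (45.4%), and ectoderm regions found in 1 library alone make up 49.7% of GABA-A regions.

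The strongest forebrain-only region of each class lay inside its gene. Whether it fell in an exon or an intron was not determined here. The highest-ranked were chr14:34969021-34969778 in Grid1 (fold 13.4, percentile 94.0 of the forebrain list) and chr16:87973512-87974353 in Grik1 (fold 13.4, percentile 93.7). Close to them were chr5:9661748-9662630 in Grm3 (fold 12.3), 63.3 kb from the listed start, chr5:70995562-70996262 in Gabra2 (fold 13.4), 100 kb from it, and chr5:71986660-71987529 in Gabrb1 (fold 12.0), 287 kb from it. The sites of AMPA, NMDA and gamma genes ranked lower, at percentiles 80.9, 79.6 and 77.8: chr3:80774334-80774730 in Gria2 (fold 8.67), chr6:136165405-136165939 in Grin2b (fold 7.33) and chr7:56765378-56766346 in Gabrg3 (fold 7.04). The delta and epsilon GABA-A genes had no forebrain-only region.

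The reverse pattern, a peak in all 4 ectoderm libraries and none in forebrain, was rare. It was found in 10 regions (1.09%, beside 2.32% for all and for long genes) of 6 genes, where 13.1% of all protein-coding genes and 43.6% of long genes had such a region and 6 of the 22 long receptor genes did. Grid1 held 3 of them: chr14:35209450-35209868 had folds of 15.6, 16.3, 9.14 and 14.3 and ranked at percentile 92.1 to 97.6 of each ectoderm list. The others in Grid1 were chr14:34921985-34922326 and chr14:35477173-35477912. So the gene with most forebrain peaks also held, in 3 of the 4 ectoderm lists, the highest-ranked of these 10 regions.

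Outside Grid1, chr6:111611825-111612227 stood out, 44.8 kb beyond Grm7, with folds of 8.71, 9.49, 7.24 and 13.49. A second site beyond Grm7 was chr6:111588765-111590043, 22 kb from the gene. Grin3a held chr4:49739445-49739958 and chr4:49748059-49748731, and Grm5 held chr7:87664095-87664438. The last ones lay outside their gene, chr11:42386468-42386836 at 32.9 kb from Gabrb2 and chrX:41384099-41384527 at 16.5 kb from Gria3 (folds 9.03, 9.41, 3.54 and 11.1). Regions assigned by distance may serve another gene, which was not tested.

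Away from promoters, sharing across all 5 libraries was as rare: 15 regions in 12 genes, 1.71% of receptor regions there beside 3.42% for all genes and 2.55% for long genes. The most prominent was chr7:57590370-57592495, with folds of 6.73, 4.81, 4.62, 6.56 and 11.4 and percentile 96.8 in forebrain. It spans the upper annotated end of Gabra5 (chr7:57407669-57591016), 80.5 kb from the only listed start. By that start alone it counts as outside promoters, and whether it holds a further start was not tested. In Gabrg3, chr7:56768153-56768664 had folds of 8.79, 8.98, 5.78 and 9.62 in ectoderm and 2.6 in forebrain, at percentile 82.9 to 88.4 of the ectoderm lists and 15.3 of the forebrain list. A further one in Gria4, chr9:4442733-4443438, ranked at percentile 80.7 to 94.4 in ectoderm and 86.3 in forebrain. Most ectoderm regions were not found again: of the 495 with an ectoderm peak outside promoters, 375 (75.8%) had it in 1 ectoderm library only, beside 68.2% for all genes and 69.7% for long genes.

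Forelimb and hindlimb ectoderm were compared with 2 libraries each, where an exact permutation test cannot give a two-sided p below 0.333, so no test was made. The mean forelimb peak number of the receptor genes was 1.44 times the hindlimb mean, beside 1.14 for all genes. The level moved with the library left out, for receptor genes and all genes alike: without hindlimb replicate 1 it was 1.17, beside 0.936 for all genes, and without hindlimb replicate 2 it was 1.90, beside 1.47. Regions with a peak in both forelimb libraries and no hindlimb library numbered 17 (1.86%, beside 1.98% for all genes) in 9 genes, and hindlimb-only regions 5 (0.55%, beside 0.67%) in 4 genes. Both shares were close to the background.

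By their mean rank in both forelimb lists, the strongest forelimb-only regions were chr6:27965269-27965547 in Grm8 (folds 5.94 and 4.81), chr7:56946452-56946780 in Gabrg3 (5.38 and 4.56) and chr7:88076376-88076678 in Grm5 (5.26 and 4.43), of which the one in Gabrg3 also had a forebrain peak. Of the hindlimb-only regions, chr4:49725810-49726276 in Grin3a had folds of 3.9 and 8.44, and chr4:125544840-125546002 and chr4:125572356-125572652 lay in Grik3. The remaining 2 were chr16:10033396-10033850 at 37.6 kb from Grin2a and chr5:70925968-70926198 at 32.3 kb from Gabra2. None of these lay at a promoter.

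Promoter states of CpG-rich and CpG-poor receptor genes were set beside those of all genes, with no test. Where a gene has several listed starts, its most CpG-rich window was used. Of the 22 genes with a sequence and a promoter peak, 13 had a summit inside the 300-base window in at least 1 library, so many peaks lay beside the letters counted. The 13 include Gabra4, where the summits inside the window were given to Gabrb1. Of the 25 receptor genes with a promoter sequence, 14 (56%) had a CpG ratio of 0.6 or more, beside 50.9% of 17491 genes. Among these CpG-rich promoters 8 of 14 were open in all 5 libraries (57.1%, beside 72.7% for all genes) and 1, Grin2c, in none. Of the 11 CpG-poor ones, 5 were open in all 5 libraries (45.5%, beside 16.1%) and 2 in none (18.2%, beside 57.3%). The 5 were Grm3, Grm7, Gabra4, Gabrg1 and Gabrg3. Of them Gabrg3 had a summit inside its window in 4 libraries, Grm7 in 3, Grm3 in 1 and Gabrg1 in 0. The Gabra4 peak, shared with the CpG-rich start of Gabrb1, had its summit outside the Gabra4 window in all 5 libraries. Gabra3, whose window held 0 CpG, had promoter peaks in forelimb replicate 1, hindlimb replicate 2 and forebrain, 726 to 953 bp from a listed start.

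Motif letters in the same windows were close to the share of all promoters or below it. The GC box GGGCGG was in 13 of 25 (52%, beside 47.8%), led by Grik3 with 7 copies. Over all genes it was in 71.6% of promoters open in all 5 libraries and 11.1% of those with no peak. The E-box CAGATG was in 2 of 25, Grin3b and Gabra5 (8%, beside 14.3%). Both the E-box CAGCTG and the cyclic AMP response element TGACGTCA were in 0 of 25, beside 14.8% and 2.36%. Each was searched on both strands, and a match or its absence says nothing of the factor.

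**Figure D5:**
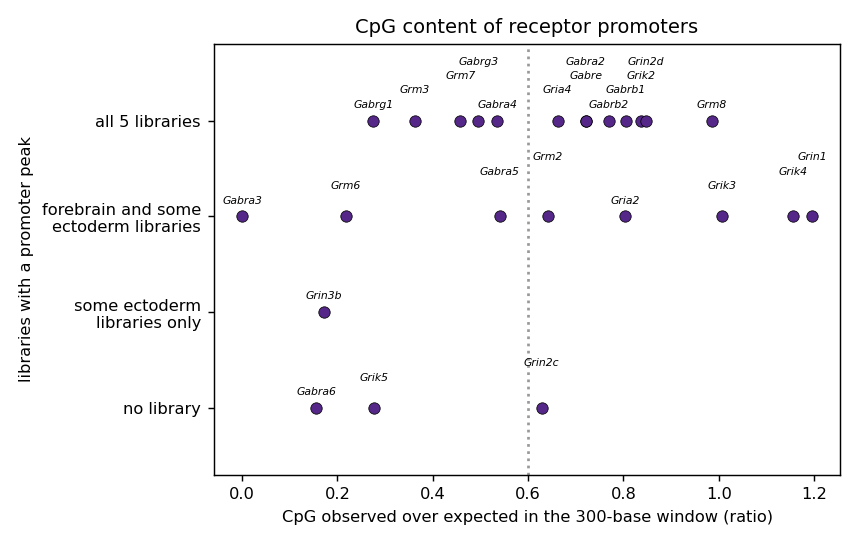
Ratio of observed to expected CpG in the 300 promoter bases (horizontal axis) of the 25 receptor genes with a listed start, by the libraries with a promoter peak (rows); the dotted line marks 0.6. Promoters open in all 5 libraries run from 0.28 (Gabrg1) to 0.99 (Grm8), and those with no peak from 0.16 (Gabra6) to 0.63 (Grin2c).

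Other genes of the same synapses, 43 chosen by role, had 259, 257, 165 and 261 peaks in the ectoderm libraries and 604 in forebrain. The ratio was 2.56, beside 1.90 for all genes and 2.36 for long genes. At 35 of the 43 forebrain exceeded each ectoderm library, beside 39.0% of all genes and 80.8% of long genes. The promoters of the 43 were open in all 5 libraries in 15 genes (beside 43.7% of all genes). They were open in forebrain alone in 8 (beside 4.26%) and in no library in 4 (beside 29.8%). Forebrain-only promoters thus numbered 8 of 43 here and 1 of 35 among the receptors, and that difference was not tested.

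Auxiliary subunits, which bind receptors and set their gating and traffic, had a ratio of 3.33 over 14 genes. Shisa9 had 7, 10, 6 and 7 ectoderm peaks and 29 in forebrain, and Cnih3 had 9, 1, 2 and 5 and 23. Scaffold proteins of the postsynaptic density had 2.0 over 14 genes, with Grip1 at 19, 18, 16 and 22 and 54, and Dlg2 at 60, 70, 40 and 65 and 90. Of these groups the scaffolds alone were below long genes in general. The GABA-B receptor genes, a metabotropic pair, had 3.83, with Gabbr2 at 10, 8, 4 and 10 and 35 and Gabbr1 at 4, 5, 4 and 3 and 11.

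Transmitter transporters had a ratio of 3.42 over 10 genes. The GABA transporter gene Slc6a11 had 2 peaks in each ectoderm library and 16 in forebrain, with a promoter peak in forebrain alone, and the glial glutamate transporter gene Slc1a2 had 5, 5, 2 and 5 and 17 with no promoter peak. The 3 synthesis genes had 2.69. Gad2 had 3, 4, 2 and 5 and 16, and Gad1 had 2, 4, 2 and 3 and 8, with a promoter peak in forebrain alone; their enzymes make GABA from glutamate.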

How the data were processed

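ATAC-seq peak lists of 5 libraries were used, 1 per library, so the authors called peaks per sample and not on pooled replicates. Per the submitters' processing notes, reads were handled on mm10 with MACS2 2.1.1.20160309, Bowtie2 2.3.5, cutadapt 1.16, bedtools and Picard. Any shift of reads to the transposase cut is not given in the sources used. The deposited lists give a score (a rescaled significance, not used further), the fold enrichment at the summit (a ratio to local background) and −log10 of the p-value and q-value. The lists end at a −log10 q of 1.30 to 1.31, that of a q threshold of 0.05.

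Each list row on chromosomes 1 to 19, X and Y was counted as 1 peak by its summit and given to the nearest protein-coding gene of RefSeq (GRCm38.p6) within 50 kb, ties to each gene, with no filter on low values. A design on start sites had been planned; 10 of the 35 genes have no entry in the promoter table, and either gene end was used there. Of 35 genes, 25 matched a promoter sequence. Summit pileups and background rates were solved from fold and p under a Poisson model, for 99.9993 to 100% of rows. Gene assignment was tested on simulated data (200 genes, 1200 positions, 100% right).

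No test was made: forebrain has 1 library. The genes, the related and marker lists and the rules were chosen with earlier results of these data known. Every receptor gene is named. Regions named are the strongest forebrain-only one per class outside promoters, all ectoderm-only ones, and all limb-only ones in a direction with 5 or fewer, otherwise the 3 with the strongest signal; regions open in all 5 libraries were chosen after their values were seen. Related genes named are the 2 per group with the largest forebrain excess. Sequences shown follow the promoter states, strongest or longest first. Alternatives were stricter and equal-length lists, other reaches and windows, 1 summit per interval, other region rules and each ectoderm library left out. Python 3.11.15, numpy 2.4.6, pandas 2.3.3, scipy 1.17.1 and matplotlib 3.10.9 were used.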

Additional observations from a re-analysis of the deposited data

How the results depend on the processing

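Of the 6 main results, only the forebrain to ectoderm and forelimb to hindlimb ratios could be scored as reversed, and neither was. The rest could be scored only as the same or moved. The number of forebrain-only promoters moved in 5 of 10 alternatives, and the forebrain-only share of regions in 6 of 12. As a share, forebrain-only promoters lay below all genes in the main analysis and above them in some alternatives. With lists of equal length the ratio of 3 receptor classes fell below 1 (NMDA 0.97, GABA-A gamma 0.53, delta and epsilon 0.5). The ratio of forebrain to ectoderm peaks stayed above that of all genes in the main analysis and its 12 alternatives (1.24 to 3.78), with the lowest value at 55391 peaks per list (1.24), and it was 2.47 to 2.98 with 1 ectoderm library left out. The number of forebrain-only promoters was 5 at −log10 q of 5 or more (beside 6.63% of all genes), 2 with lists of equal length (beside 2.69%), 2 with a promoter window of 0.5 kb (beside 4.63%) and 1 to 3 with 1 ectoderm library left out. The forebrain-only share of regions was 54.4% at −log10 q of 5 or more, 21.2% with lists of equal length and 45.6% to 49.3% with 1 ectoderm library left out; leaving out a library by itself adds to that share. Genes with a forebrain promoter peak made up 71.4% with lists of equal length. The forelimb to hindlimb ratio was 1.17 to 1.90 with 1 library left out. Promoters open in all 5 libraries numbered 10 to 21 over 10 alternatives. Counting promoter peaks whatever gene is nearer, an alternative chosen after seeing the data, gave 1 forebrain-only and 15 shared promoters. Apart from what the construction of an alternative sets, the cause of these shifts was not tested. No paired analysis was possible because the results come from no test and forebrain has 1 library. Depth limits what could be called: at the background rates the smallest pileup called was 10 to 12 reads, and a site without a peak need not be closed.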
